A study of Mus musculus with 13 samples.

Results

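The genes of the membrane sector of the vacuolar proton pump, the V-ATPase, were followed in the CA1 region of mouse entorhino-hippocampal tissue cultures after 2 denervating lesions. The members are the 10 gene symbols Atp6v0a1, Atp6v0a2, Atp6v0b, Atp6v0c, Atp6v0c-ps2, Atp6v0d1, Atp6v0e, Atp6v0e2, Atp6ap1 and Atp6ap2, of 55291 symbols in each library. They were chosen by symbol, with the lesion against control values of several of them already known, so these values are given as a description without a p-value. All 10 were found and all 10 passed the minimum on low counts, a mean normalized count of 150 over the libraries of a fit. Atp6v0c and Atp6v0c-ps2 passed it through the lesioned libraries, since their control counts were 26 to 92 and 40 to 118. Their ranks and calls below are among genes kept by the same minimum. RNA was sequenced from 13 libraries, each made from a single CA1 region of a wildtype C57BL/6 culture: 5 non-lesioned controls, 4 cultures after Schaffer collateral lesion (SCL, which cuts the CA3 input to CA1) and 4 after entorhinal cortex lesion (ECL, which removes the entorhinal input). Lesioned CA1 regions were isolated 3 days after the cut. The protocol gives preparation at postnatal day 4 to 5 and names Thy1-eGFP-M beside C57BL/6J animals, of both sexes, while the titles give each library as wildtype, and cultures had matured for at least 18 days in vitro before use. Each group held both sexes, with 2 males and 3 females among the controls, 1 male and 3 females after SCL, and 3 males and 1 female after ECL.

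The controls held 14371152 to 21092612 counts each, the SCL libraries 16405517 to 56786613 and the ECL libraries 20210165 to 46449937. By their titles and source names the libraries are from CA1, but their extraction protocol names the dentate gyrus. The summed level of 5 CA1 pyramidal cell markers was 222 to 299 CPM (counts scaled to library size) in the controls, 232 to 265 after SCL and 193 to 405 after ECL, and that of 4 dentate granule cell markers was 13.8 to 21.2, 11.02 to 14.8 and 12.4 to 17.8. The summed level of 11 microglial markers was 510.0 to 629.9 normalized CPM in the controls, 1021 to 2141 in SCL and 1029.7 to 1491 in ECL cultures, and none of these markers was at 0 in all libraries. In such bulk tissue, more cells of a type and more RNA per cell cannot be told apart, and the part of microglia in the values below was not tested.

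The V-ATPase is a rotary pump that spends ATP to move protons into lysosomes, endosomes, the Golgi apparatus and synaptic vesicles. Its V1 sector in the cytosol splits ATP and turns a ring of proteolipid subunits in the membrane sector, V0, and protons cross between this ring and subunit a. In nerve terminals the proton gradient drives the loading of transmitter into vesicles, and in microglia it acidifies the lysosomes in which ingested material is digested. Atp6v0c encodes proteolipid c, the repeated subunit of the ring, and Atp6v0b the related proteolipid c″. Atp6v0d1 encodes the subunit that caps the ring, Atp6v0e and Atp6v0e2 the small subunit e, and Atp6v0a1 and Atp6v0a2 isoforms of subunit a. Atp6ap1 and Atp6ap2, the latter also known as the prorenin receptor, are accessory proteins of the membrane sector.

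One of the 10 members is no pump gene but an annotated processed pseudogene, and its sequence is shown because it bears on how the counts of Atp6v0c can be read. Atp6v0c lies on the minus strand at chr17:24163866-24169702 and Atp6v0c-ps2 on the plus strand at chr6:37806086-37806550 (GRCm38, GENCODE M21). The 465 bases of Atp6v0c-ps2 matched the 465 coding bases of Atp6v0c at 464 positions, an identity of 99.8%, with T111C as the single difference (base of Atp6v0c, position counted from 1 at the A of the start codon, base of Atp6v0c-ps2). Bases 66 to 156 of both are printed here with that position in capitals.
Atp6v0c: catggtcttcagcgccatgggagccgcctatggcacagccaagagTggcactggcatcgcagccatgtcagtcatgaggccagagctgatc
Atp6v0c-ps2: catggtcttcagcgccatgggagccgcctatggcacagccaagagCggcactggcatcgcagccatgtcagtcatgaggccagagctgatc
The longest run of identical bases was 354, longer than a read of 150 bases. Apart from this base, the untranslated ends set the transcript of Atp6v0c apart, with 718 of its 1183 bases. Among all stretches of 100 bases in the annotated transcripts of a gene, 92.2% of those of Atp6v0c and 27.3% of those of Atp6v0c-ps2 were found in no other gene. A more distant copy, Atp6v0c-ps1, was 96.4% identical and received 3 to 44 counts per library. How the counting treated reads that map to several places is not given in the sources used here, so counts of Atp6v0c and Atp6v0c-ps2 are uncertain as to their origin.

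Both genes of this pair stood higher in every lesioned library than in every control once scaled to library size. Atp6v0c was assigned 76, 92, 26, 38 and 52 counts in the controls, 805, 796, 1549 and 88 after SCL, and 1837, 860, 502 and 1113 after ECL. Scaled to library size and composition with TMM factors (normalized CPM), it stood at 4.24, 4.84, 1.76, 2.07 and 3.49 in the controls, at 29.9, 13.7, 41.3 and 5.21 after SCL, and at 41.4, 37.3, 24.01 and 48.4 after ECL. SCL replicate 4 stood just above the highest control, and the other lesioned libraries lay well above it. The group means were 3.28 ± 1.34 (SD, n = 5), 22.5 ± 16.2 (n = 4) and 37.8 ± 10.2 (n = 4) normalized CPM. The log2 fold change against control was 2.78 after SCL (SE 0.50) and 3.52 after ECL (SE 0.31), which placed Atp6v0c at rank 12 from the top among 11733 genes after SCL and at rank 5 among 11392 after ECL. Leaving out 1 library at a time gave 2.31 to 3.10 after SCL, with 3.10 without SCL replicate 4, and 3.37 to 3.71 after ECL.

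**Figure D1:**
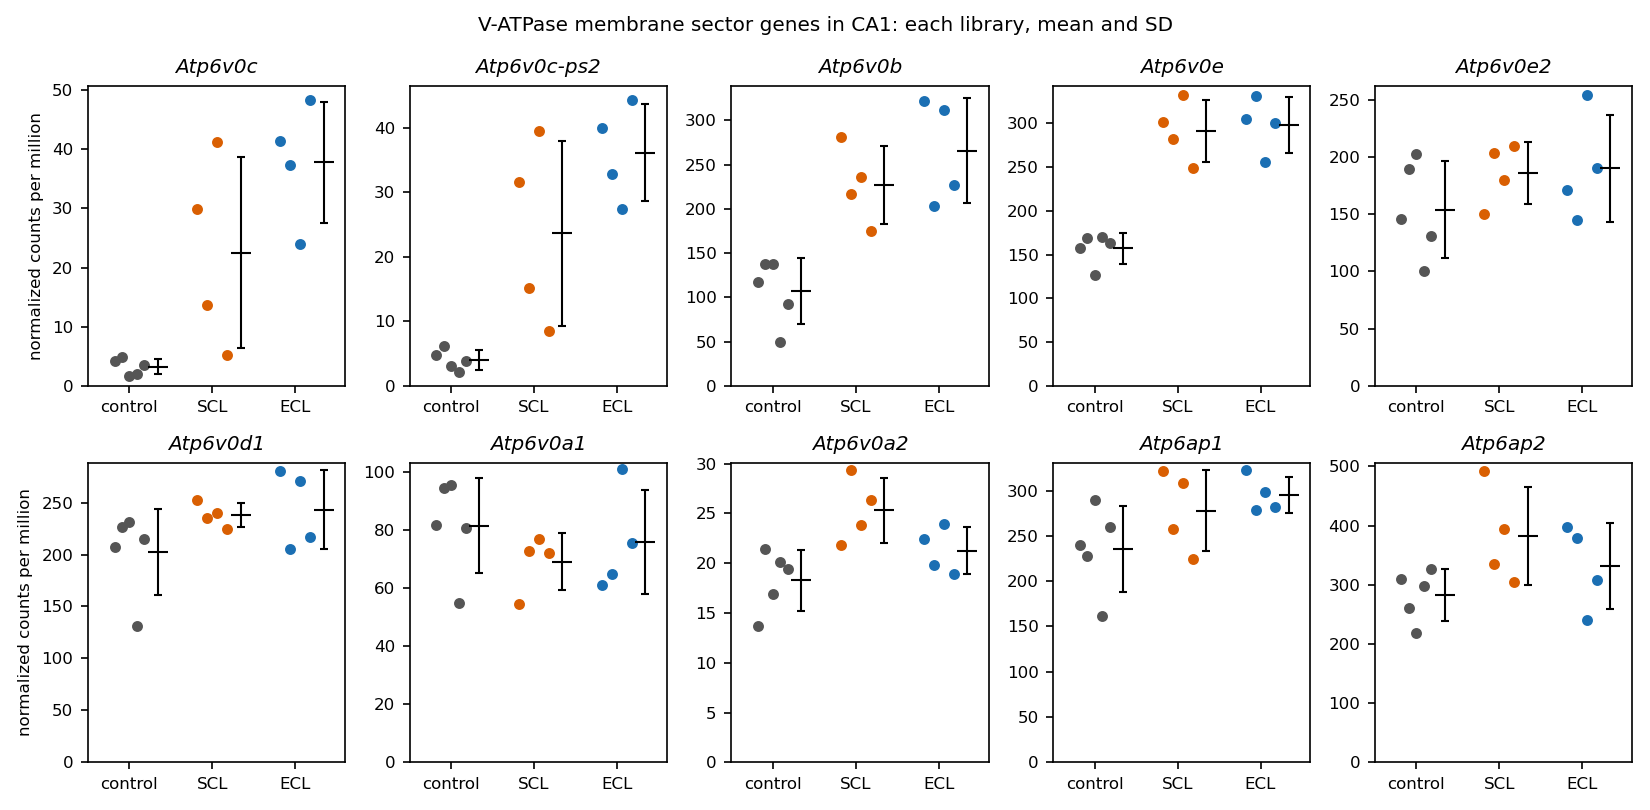
Normalized CPM of the 10 members (y axes, each starting at 0) in the control, SCL and ECL libraries (x axis). Points are single libraries, horizontal bars the group mean and error bars the SD (n = 5, 4 and 4). Atp6v0c, Atp6v0c-ps2, Atp6v0b and Atp6v0e lie above the control range in all 8 lesioned libraries, while the points of Atp6v0a1, Atp6v0d1, Atp6v0e2, Atp6ap1 and Atp6ap2 overlap between groups.

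Atp6v0c-ps2 followed the same pattern. It stood at 4.85, 6.21, 3.04, 2.18 and 3.89 normalized CPM in the controls, at 31.5, 15.1, 39.5 and 8.52 after SCL, and at 40.0, 32.8, 27.4 and 44.4 after ECL. Here too SCL replicate 4 was the lowest of the lesioned libraries and still above all controls. The log2 fold changes were 2.55 after SCL (SE 0.42) and 3.16 after ECL (SE 0.28). With the counts of both rows added up, the log2 fold change was 2.66 (SE 0.44) after SCL and 3.34 (SE 0.28) after ECL.

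The division of reads between the gene and its copy was then compared. Atp6v0c-ps2 received 55.4% ± 4.81 (SD, n = 5) of the counts of both in the controls, 53.7% ± 5.78 (n = 4) after SCL and 49.3% ± 2.83 (n = 4) after ECL. Across libraries the share lay between 46.8% and 63.4%, and the groups overlapped. The difference from control was −1.69 percentage points after SCL (exact permutation test, two-sided, p = 0.587, adjusted 0.587) and −6.13 after ECL (exact permutation p = 0.0476, adjusted 0.143), and that between ECL and SCL was −4.43 (exact permutation p = 0.229, adjusted 0.343). None of the 3 passed 0.05 after Benjamini-Hochberg adjustment, and the smallest p these designs allow is 0.00794 against control and 0.0286 between the lesions. The annotated exons of Atp6v0c span 3384 bases and those of the copy 465.

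**Figure D2:**
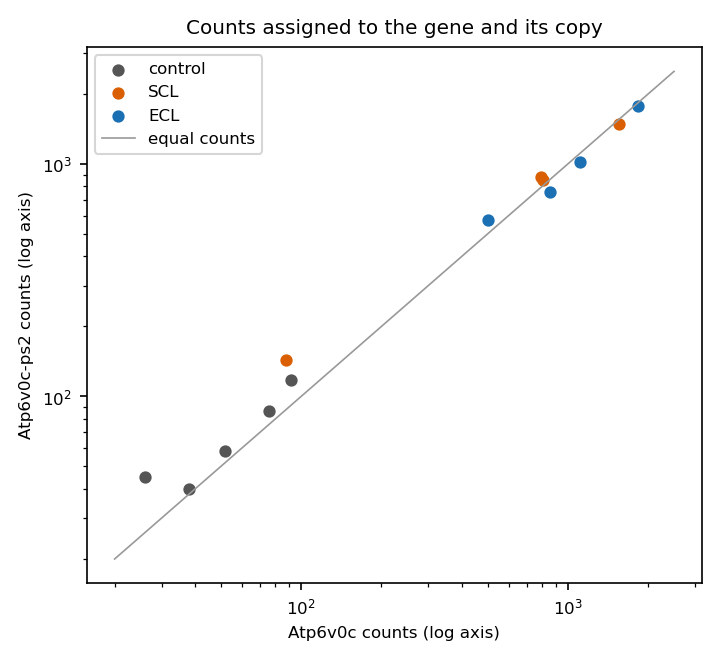
Counts assigned to Atp6v0c (x axis, log scale) and to Atp6v0c-ps2 (y axis, log scale) in each of the 13 libraries, colored by group, with a line of equal counts. The points lie along the line, from 26 and 45 counts in control replicate 3 to 1837 and 1774 in ECL replicate 1, and SCL replicate 4 (88 and 144) lies next to the controls, whose highest counts are 92 and 118.

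The protein-coding neighbors of both loci were compared in the same way. Amdhd2, which ends 99 bases from Atp6v0c, had log2 fold changes of 0.07 (SE 0.21) after SCL and 0.04 (SE 0.22) after ECL, and Tbc1d24, 5728 bases away on the other side, had −0.17 (SE 0.13) and −0.23 (SE 0.14). Trim24, the nearest on one side of Atp6v0c-ps2 though 64260 bases away, had −0.29 (SE 0.15) and −0.06 (SE 0.16). None of these passed the test, with adjusted p-values (edgeR) from 0.172 to 0.919. Akr1d1, 237270 bases away on the other side, was at or below 1.31 normalized CPM in all libraries and was not tested.

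Atp6v0b, the second proteolipid gene, is not a near-identical copy of another annotated gene, and 94.2% of its 100-base stretches were unique to it. It lies on the minus strand at chr4:117884326-117887333. Its normalized CPM was 118, 138, 138, 50.1 and 92.7 in the controls, 281, 216, 236 and 175 after SCL, and 321, 204, 311 and 227 after ECL. Every lesioned library exceeded every control, and control replicate 4 was the lowest of all. The log2 fold change was 1.08 after SCL (SE 0.25) and 1.32 after ECL (SE 0.25), and without control replicate 4 it was 0.89 and 1.13. Its exons share 243 bases (11.9%) with the antisense gene Gm12841, whose own counts were 0 to 2 per library, and the counting did not use strand.

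Atp6v0e, which encodes the widely expressed form of subunit e, had the tightest groups of the members that rose. It stood at 158, 169, 127, 170 and 163 normalized CPM in the controls (printed to 3 digits), at 301, 282, 332 and 249 after SCL, and at 305, 331, 255 and 301 after ECL. The ranges of control and lesioned libraries were far apart, and those of SCL and ECL lay on top of each other. The log2 fold changes were 0.89 after SCL (SE 0.13) and 0.93 after ECL (SE 0.14), or 1.85 and 1.89 times the control mean. Its paralog Atp6v0e2 stood at 146, 189, 203, 100 and 131 normalized CPM in the controls, 150, 204, 180 and 209 after SCL, and 171, 145, 254 and 190 after ECL. These groups overlapped, with log2 fold changes of 0.27 (SE 0.20) and 0.31 (SE 0.21).

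Atp6v0d1 and the subunit a genes showed small differences. Atp6v0d1 stood at 207, 227, 232, 131 and 215 normalized CPM in the controls, 252, 235, 240 and 224 after SCL, and 280, 205, 271 and 217 after ECL, with log2 fold changes of 0.23 (SE 0.16) and 0.27 (SE 0.18). The 4 SCL libraries were close together, and the groups overlapped through the upper controls. Atp6v0a1, the isoform of subunit a found in nerve terminals, was the only member with a negative log2 fold change after both lesions, −0.24 (SE 0.17) after SCL and −0.10 (SE 0.19) after ECL, and with TMM factors over all symbols the latter turned to 0.08. Its values were 81.7, 94.4, 95.4, 54.9 and 80.6 in the controls, 54.7, 72.6, 76.8 and 72.0 after SCL, and 61.2, 65.0, 101 and 75.7 after ECL, and the groups overlapped.

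Atp6v0a2, the isoform of the Golgi and endosomes, had the lowest level per kilobase of exon in the controls after Atp6v0c. It stood at 13.7, 21.4, 17.0, 20.1 and 19.4 normalized CPM in the controls, 21.8, 29.3, 23.8 and 26.3 after SCL, and 22.4, 19.8, 23.97 and 18.9 after ECL. All SCL libraries lay above all controls, by a narrow margin, and the ECL libraries overlapped the controls. The log2 fold changes were 0.47 (SE 0.17) and 0.22 (SE 0.19). Its exons share 663 bases (9.86%) with the antisense gene 4930404A12Rik, which received 0 or 1 counts per library.

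Both accessory genes overlapped between groups. Atp6ap1 stood at 240, 228, 290, 161 and 260 normalized CPM in the controls (to 3 digits), 322, 257, 308 and 225 after SCL, and 322, 279, 298 and 281 after ECL. Its log2 fold changes were 0.24 (SE 0.18) and 0.33 (SE 0.16), with the controls overlapping the lower SCL libraries and control replicate 3 lying within the ECL range. Atp6ap2 stood at 311, 261, 218, 298 and 328 in the controls, 493, 336, 394 and 305 after SCL, and 398, 380, 241 and 308 after ECL. Its log2 fold changes were 0.44 (SE 0.17) and 0.24 (SE 0.17), with SCL replicate 1 far above the rest.

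Counted over the members, 4 of 10 (Atp6v0c, Atp6v0c-ps2, Atp6v0b and Atp6v0e) were called higher and 0 lower after SCL, at an adjusted p under 0.05 in edgeR, where 24.6% of all tested genes were called, 13% higher and 11.6% lower. The same 4 were called higher and 0 lower after ECL, where 27.6% of all genes were called, 15.1% higher and 12.4% lower. All lesioned libraries stood above all controls for 5 members after SCL and 4 after ECL, beside 11.9% and 12.8% of all genes, and below all controls for 0 members, beside 11.4% and 12.1%. The choice of the members used these contrasts, and both lesions were set against the same controls, so nothing is read from these counts. Over the members the log2 fold changes had a median of 0.45 for SCL and 0.32 for ECL, beside 0.01 and −0.01 over all tested genes. With TMM factors over all symbols the median of all genes moved to 0.21 and 0.18 and the split of calls moved from 1529 higher and 1362 lower to 2554 and 602 for SCL, and from 1722 and 1417 to 2460 and 695 for ECL, with 6 and 5 members called higher.

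**Figure D3:**
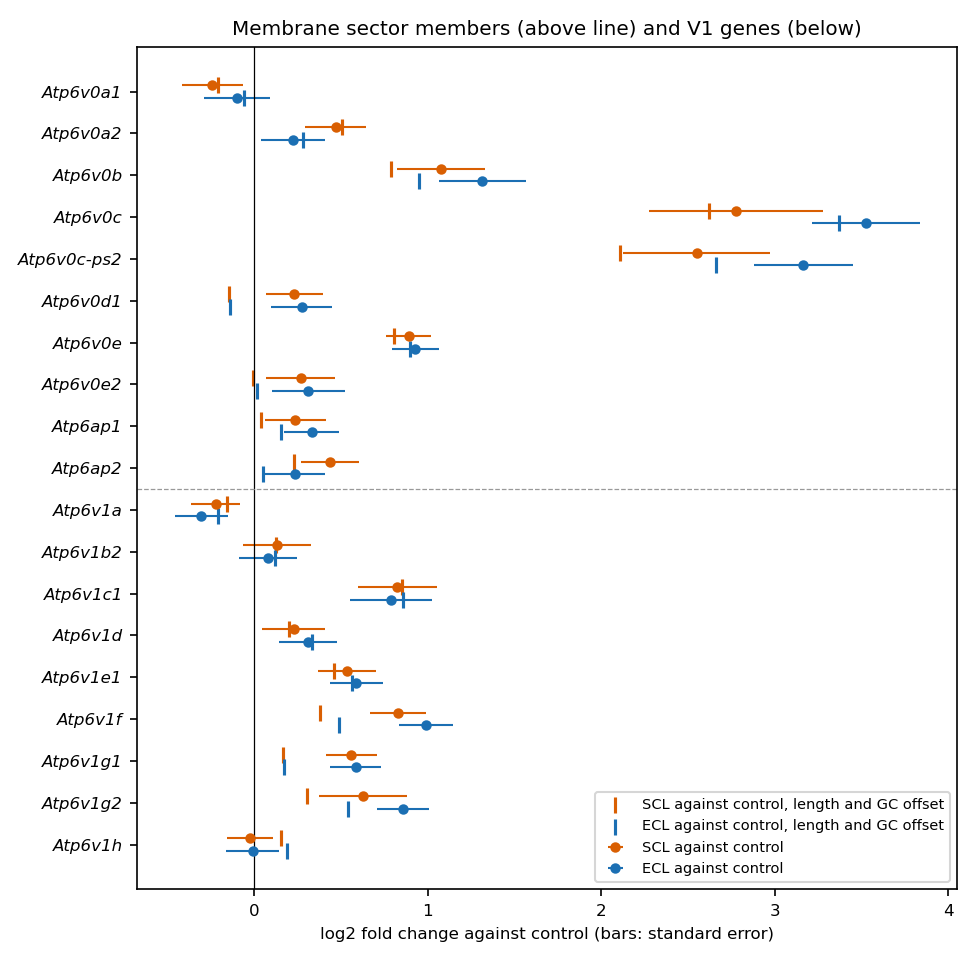
Log2 fold change against control (x axis) of the 10 members (above the dashed line) and 9 tested V1 genes (below it), after SCL and ECL. Points and bars are the estimate and its SE from edgeR, and vertical ticks are the estimates with a length and GC offset. Atp6v0c and Atp6v0c-ps2 lie between 2.55 and 3.52, Atp6v0b and Atp6v0e between 0.89 and 1.32, and all other genes shown at or below 0.99.

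Whether the 2 lesions differed was tested directly, in lesioned libraries that also entered both contrasts known when the members were chosen. No member was called between ECL and SCL, and 0 members had an unadjusted p under 0.05 (smallest 0.126, edgeR). Of all 12478 genes tested 0% were called, with 918 at an unadjusted p under 0.05, and DESeq2 called 62. Atp6v0c was higher after ECL by 0.75 on the log2 scale (SE 0.47, adjusted p = 0.765, edgeR) and Atp6v0c-ps2 by 0.62 (SE 0.38, adjusted p = 0.757), and in both the ranges of SCL and ECL overlapped. No member had groups without overlap between the lesions, beside 1.55% of all genes with ECL higher and 2.30% with ECL lower. Without SCL replicate 4 the difference in Atp6v0c was 0.43, and with sex as a term it was 1.60. Atp6v0b differed by 0.24 (SE 0.19, adjusted p = 0.831) and Atp6v0e by 0.04 (SE 0.14, adjusted p = 0.973). The smallest adjusted p among the members was that of Atp6v0a2, which was lower after ECL (log2 difference −0.24, SE 0.15, adjusted p = 0.755). The difference was thus estimated less precisely for Atp6v0c than for Atp6v0e.

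Levels per kilobase of annotated exon were used to order the members in the controls. Atp6v0d1 (112.8 normalized CPM per kilobase), Atp6ap2 (108), Atp6ap1 (77.9), Atp6v0e2 (64.7), Atp6v0b (52.3) and Atp6v0e (42.4) came first, and each overlapped the next in its range over the 5 controls. Atp6v0a1 (12.4) followed without overlap with Atp6v0e and overlapped Atp6v0c-ps2 (8.68). Atp6v0a2 (2.72) and Atp6v0c (0.969) came last, each below the range of the one before. The proteolipid c gene, whose product occurs in several copies in each pump, was thus assigned the fewest reads per kilobase of all members. This rank is uncertain, since the assignment of reads shared with its copy is not known. The counting also used a later annotation (GENCODE M25) than the exon lengths (M21). The lengths merge all annotated transcripts of a gene, and for Atp6v0c this gave 3384 bases, while its transcript compared above has 1183. After ECL Atp6v0c reached 11.2 ± 3.03 (SD, n = 4) per kilobase on the merged length, near Atp6v0a1 (11.5 ± 2.73), and Atp6v0b reached 129.6 ± 28.9.

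The members also differed in how they varied over the 13 libraries (Pearson correlation of log2 normalized CPM, as a description, with group differences included). Atp6v0c correlated with Atp6v0c-ps2 at 0.992, with Atp6v0e at 0.927 and with Atp6v0b at 0.828. Reads shared by Atp6v0c and Atp6v0c-ps2 may enter the first value, and their part in it was not tested. The correlation of Atp6v0c with Atp6v0d1 was 0.522, with Atp6v0e2 0.283 and with Atp6v0a1 −0.252. Atp6v0d1 followed Atp6v0b (0.869) and Atp6ap1 (0.868), and Atp6v0a1 ran opposite to Atp6ap2 (−0.763). Among 11862 tested genes other than the members, the 5 whose levels followed Atp6v0c most closely were Gm4948 (0.979), Ppib (0.977), Gng3 (0.977), Cfl1 (0.975) and Chchd3 (0.974), and with the group means removed these correlations were 0.905, 0.894, 0.921, 0.921 and 0.912. Ppib encodes an isomerase of the endoplasmic reticulum, Gng3 a neuronal G protein subunit, Cfl1 the actin-severing protein cofilin and Chchd3 a protein of mitochondrial cristae. Control replicate 4 was the lowest control for 6 of the 10 members and SCL replicate 4 the lowest SCL library for 7.

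Gene length moved with the lesion contrasts across all genes and is given beside the members for that reason. Protein-coding genes with under 2500 bases of exon were shifted upwards, with medians of 0.36 for SCL and 0.41 for ECL on the log2 scale, while those of 5000 bases or more had −0.14 after either lesion. Genes with under 50% of their 100-base stretches unique, as Atp6v0c-ps2, had medians of 0.39 (284 genes) and 0.43 (279 genes). Of this class 35.9% and 44.4% were called higher, beside 13% and 15.1% of all genes. With an offset fitted to length and GC content the medians of this class were 0.06 and 0.07. With that offset 22.5% and 28.7% of the class were still called higher, beside 11.2% and 13.99% of all genes. Called lower were 17.6% and 19.7% of it, beside 12.6% and 14.9%. With the same offset Atp6v0c had log2 fold changes of 2.62 after SCL and 3.37 after ECL, Atp6v0c-ps2 2.11 and 2.66, Atp6v0b 0.79 and 0.95, and Atp6v0e 0.81 and 0.90. The small positive values of Atp6v0d1 turned to −0.14 after both lesions and those of Atp6v0e2 to −0.01 and 0.02, while Atp6v0a2 had 0.50 after SCL.

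**Figure D4:**
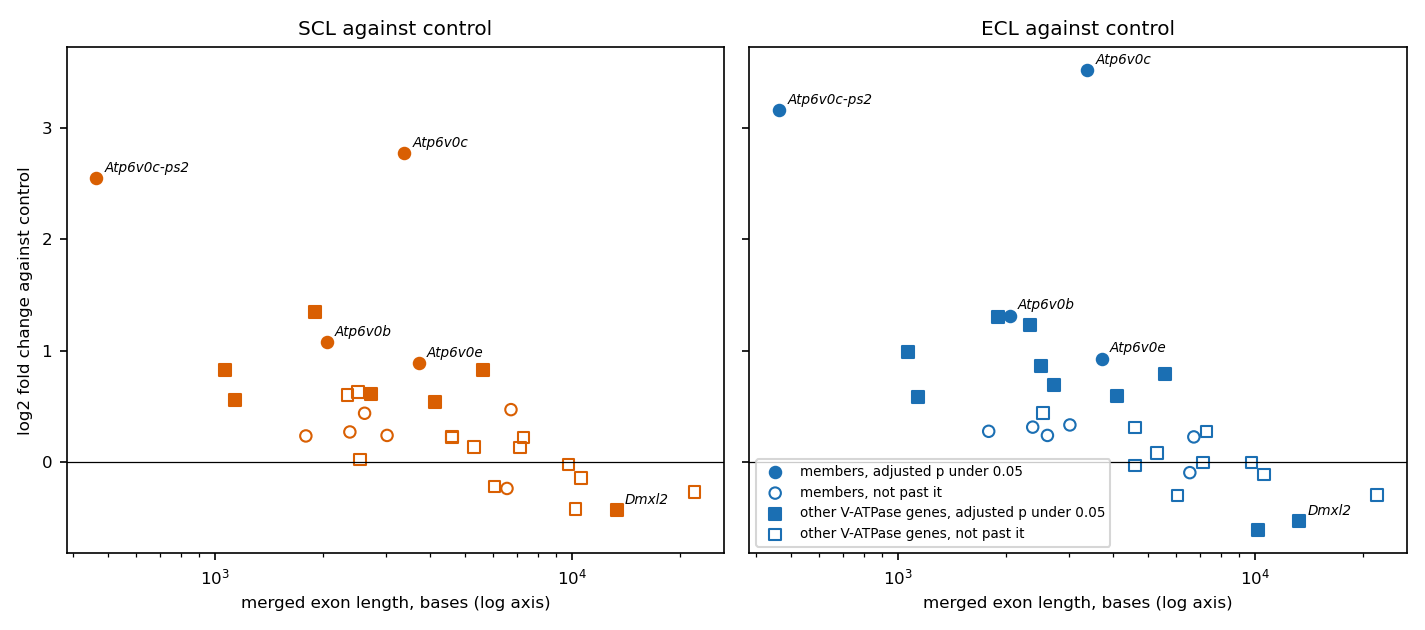
Log2 fold change against control (y axis) and merged exon length in bases (x axis, log scale) of the members (circles) and the other V-ATPase genes tested (squares: V1, other V0, assembly and regulation), after SCL (left) and ECL (right). Filled symbols have an adjusted p under 0.05. The filled squares above 0 lie at shorter lengths than those below 0 (Dmxl2 and Wdr7), and Atp6v0c, with 3384 bases, stands well above genes of like length.

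The soluble V1 sector was described by a list that was also drawn up with earlier results known. The adjusted p-values against control, for this list and those that follow, therefore describe these data and are not independent support. Of 13 listed V1 genes, 9 passed the minimum on low counts. After SCL 4 of the 9 rose and 0 fell (median log2 fold change 0.53), beside 13% of all genes called higher, and after ECL 5 rose and 0 fell (median 0.58), beside 15.1%. With the length and GC offset 3 rose after SCL (median 0.20), beside 11.2% of all genes, and 5 after ECL (median 0.33), beside 13.99%. The 5 after ECL were not the same set as without the offset, since Atp6v1g1 was no longer called. Atp6v1f, a subunit of the central stalk, rose by 0.83 on the log2 scale after SCL (SE 0.16, adjusted p = 0.00489, edgeR) and by 0.99 after ECL (SE 0.15, adjusted p = 0.000638), in every lesioned library above every control. Atp6v1g1 and Atp6v1g2, forms of a peripheral stalk subunit, rose by 0.58 (adjusted p = 0.01) and 0.86 (adjusted p = 0.0013) after ECL, and Atp6v1g1 by 0.56 (adjusted p = 0.0163) after SCL, where Atp6v1g2 had 0.63 (adjusted p = 0.0875). Atp6v1e1 and Atp6v1c1, also of the peripheral stalks, rose by 0.53 and 0.83 after SCL (adjusted p = 0.0338 and 0.0202) and by 0.59 and 0.79 after ECL (adjusted p = 0.0116 and 0.0238). The catalytic subunit gene Atp6v1a did not pass the test, at −0.22 after SCL and −0.30 after ECL (adjusted p = 0.27 and 0.155).

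Some of these V1 calls changed with the length and GC offset, with other terms in the fit or with 1 library left out. With the offset for length and GC content Atp6v1g1 had 0.16 and 0.17 and was not called after either lesion, and Atp6v1f had 0.38 and 0.49 and Atp6v1g2 0.54 after ECL, still called. Atp6v1c1, whose groups overlapped, had 0.50 after SCL without SCL replicate 1 and 0.42 after ECL without ECL replicate 1 and was then not called, nor was it after ECL without control replicate 3 (0.71). Atp6v1e1 after SCL was not called without control replicates 2, 3, 4 or 5 or SCL replicates 1 or 3, with 0.38 to 0.56, and 2 V1 genes in place of 4 were called after SCL without SCL replicate 1. No V1 gene was called between ECL and SCL, and 0 had an unadjusted p under 0.05 (edgeR). Of the 3 other V0 genes listed, Tcirg1 was tested and had 0.22 (adjusted p = 0.6) and −0.04 (adjusted p = 0.94), and Atp6v0a4 and Atp6v0d2 were too low to be tested.

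Genes that assemble or regulate the pump were listed next. Of 11 listed, 10 were tested. After SCL 2 rose and 1 fell, beside 13% and 11.6% of all genes, and after ECL 3 rose and 2 fell, beside 15.1% and 12.4%. Tmem199, which helps to assemble the membrane sector in the endoplasmic reticulum, rose by 1.35 after SCL (SE 0.29, adjusted p = 0.00692) and by 1.30 after ECL (SE 0.28, adjusted p = 0.00388). Tmem9 rose by 0.61 and 0.69 (adjusted p = 0.024 and 0.0105). Dmxl2, Wdr7 and Rogdi belong to the complex that rejoins V1 to V0. Dmxl2 fell by 0.43 and 0.54 on the log2 scale (adjusted p = 0.0235 and 0.0134), Wdr7 fell by 0.62 after ECL (adjusted p = 0.0172), and Rogdi rose by 1.23 after ECL (SE 0.24, adjusted p = 0.00259). Wdr7 and Rogdi were not called after SCL. There Rogdi had 0.62 (SE 0.20) with the replicate number as a block, and without a filter on low counts it was called, at 0.81 (SE 0.21). Between ECL and SCL 0 of the 10 tested genes were called, beside 0% of all genes, and 2 had an unadjusted p under 0.05 (edgeR). With the length and GC offset Tmem9 and Dmxl2 were not called after either lesion, and with TMM factors over all symbols Dmxl2 was not called after either (−0.22 and −0.34) nor Wdr7 after ECL (−0.41). After SCL, Tmem9 was not called without control replicate 5 (0.57), SCL replicate 1 (0.48) or SCL replicate 2 (0.60), and Dmxl2 not without control replicate 5 (−0.40), SCL replicate 2 (−0.42) or SCL replicate 3 (−0.41). After ECL, Dmxl2 was not called without ECL replicate 4 (−0.47). With the replicate number as a block Dmxl2 was called after neither lesion (−0.39 and −0.50). Of the 2 listed genes that fell after ECL, 0 were called with the block or without ECL replicate 4 and 1 with sex as a term, and Wdr7 had −0.40 with the length and GC offset.

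Organelles that carry the pump were described by lists of their genes. Of 27 tested lysosomal genes, 13 rose and 1 fell after SCL (median log2 fold change 0.52), beside 13% and 11.6% of all genes. After ECL 10 rose and 2 fell (median 0.31), beside 15.1% and 12.4%. With the length and GC offset the medians were 0.35 and 0.14. Ctsb, the protease cathepsin B, rose by 1.38 after SCL (SE 0.19, adjusted p = 0.00128) and 1.30 after ECL (SE 0.18, adjusted p = 0.000279). Of the 11 microglial markers, 11 rose after SCL and 7 after ECL, and their part in the lysosomal values was not tested. Of 13 tested synaptic vesicle genes, 0 were called after SCL in edgeR (4 at an unadjusted p under 0.05). DESeq2 called 2 higher and 1 lower after SCL, beside 1790 higher and 1676 lower of all 11438 genes it tested. Other edgeR settings also called some of the 13 after SCL. The replicate block called 2 higher and 1 lower, beside 1324 and 1032 of all 11733 genes. With the length and GC offset 0 were higher and 2 lower, beside 1295 and 1455 of 11575. TMM factors over all symbols gave 2 higher and 0 lower, beside 2554 and 602 of 11733. After ECL 3 rose and 2 fell, beside 15.1% and 12.4% of all genes. Only 1 was called higher after ECL with sex as a term, with the length and GC offset or without ECL replicate 4, and 0 were called lower without ECL replicate 1 or ECL replicate 2. Between ECL and SCL 0 of the 13 were called, beside 0% of all genes, and 1 had an unadjusted p under 0.05 (edgeR). Syn1, the vesicle protein synapsin 1, rose by 0.86 after ECL (SE 0.23, adjusted p = 0.0139) and was not called with the length and GC offset (0.63), with sex as a term (0.66) or without ECL replicate 4 (0.73).

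Promoters were searched for CACGTG, the core of the element through which the factor TFEB is known to act on many lysosomal genes. It reads the same on both strands and is contained in the longer form TCACGTGA. RefSeq windows (GRCm38.p6) from 250 bases before to 50 bases after the start site were found for 8 of the 10 members. Of these 8, 3 held the core (Atp6v0b, Atp6v0d1 and Atp6v0e), beside 8.09% of all 27025 genes with a window (7.15% of 32851 windows), and Atp6v0d1 and Atp6v0e held the longer form, beside 1.125% of all genes (0.974% of windows). The 80 bases before and 20 after the start site of these 3 genes are printed with the core in capitals, since 2 of them rose and 1 did not pass the test.
Atp6v0b: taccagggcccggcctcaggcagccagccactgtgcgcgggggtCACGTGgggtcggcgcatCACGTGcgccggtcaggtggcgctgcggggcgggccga
Atp6v0d1: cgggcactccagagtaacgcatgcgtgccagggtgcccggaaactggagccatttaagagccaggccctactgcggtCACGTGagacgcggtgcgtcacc
Atp6v0e: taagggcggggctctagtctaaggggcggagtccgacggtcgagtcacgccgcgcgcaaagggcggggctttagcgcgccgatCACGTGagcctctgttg
These lie at chr4:117887310-117887409 (minus strand), chr8:105566045-105566144 (minus strand) and chr17:26676316-26676415 (plus strand). The 3 windows of Atp6v0c did not hold these letters, and of 9 V1 genes with a window Atp6v1a alone held them. A match describes letters only, and no binding was measured here.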

How the data were processed

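RNA of single CA1 regions was sequenced in 13 libraries (polyadenylated RNA, low-input kit). Per the labels and methods, the authors trimmed reads with cutadapt 3.5, mapped them with STAR 2.7.8a to mm10 and counted them on exons of GENCODE M25 with featureCounts 2.0.1, unstranded. Raw read counts for 55291 symbols were deposited. Of counts from 1 to 20, 63.0% to 74.3% were even per library, so mates may have been counted separately, and halved counts were tried. Reads carry no molecular identifiers, so precision from counts covers counting error only.

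The members and gene lists were chosen with earlier results of these data known. SCL and ECL were each compared with control, and ECL with SCL, in separate fits (edgeR 4.0.16 in R 4.3.3, glmQLFit and glmQLFTest, two-sided, Benjamini-Hochberg over all tested genes, threshold 0.05). TMM factors were computed over the tested genes, those whose normalized counts averaged 150 or more. SEs were obtained as |log2 fold change| / √F. The labels do not tie cultures to animals, so p-values measure the spread between cultures. No batch or date is given, and sex was read from the column headings. Named were all members, called V1, other V0 and assembly genes (at most 4 per list and comparison, by adjusted p), at most 2 lysosomal and 2 synaptic vesicle genes per comparison, neighboring and exon-sharing genes, and the 5 genes most like Atp6v0c, apart from some that are not reported here. Atp6v1a, Atp6v1c1 after ECL, Atp6v1g2 after SCL, Rogdi after SCL, Wdr7, Tcirg1, Atp6v0a4, Atp6v0d2 and Atp6v0c-ps1 were named beside these after their values were seen. Gene models and transcripts were those of GENCODE M21 (53292 symbols matched), promoters those of RefSeq on GRCm38.p6. Shares were compared with exact permutation tests (scipy 1.17.1). Alternatives were DESeq2 1.42.0, other scalings and filters, 1 fit of all libraries, the title number as a block, sex, an offset for length and GC content (mgcv 1.9.3), leaving out each library and, chosen after seeing the data, the number in the column headings. The code was tested on simulated data.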

Additional observations from a re-analysis of the deposited data

Results flagged for a closer look

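Of 33 groups of libraries examined (11 quantities in 3 groups), 2 held 1 library far from the others, and chance gives about 1 in 20. Atp6v0d1 was lowest in control replicate 4, at 131 normalized CPM, while the other 4 controls lay between 207 and 232. Atp6v0e was lowest in control replicate 3, at 127 normalized CPM, with the other 4 between 158 and 170 (to 3 digits).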

How the results depend on the processing

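The members were chosen with their lesion against control values known, so their calls under the alternatives support nothing. The causes of the changes below were not tested. Without a filter on low counts 5390 genes were called after SCL, 8034 after ECL and 217 between ECL and SCL, with 1 member (Atp6v0c, 0.74) among the latter. Between ECL and SCL, DESeq2 called 62 genes, and 1 fit of all libraries and the sex term called 1 gene each. The heading number as a term gave 1824 genes and 1 V1 gene after SCL. Leaving out 1 library gave 1672 to 2828 genes after SCL (1904 without SCL replicate 2, 1672 without SCL replicate 3), 2 to 5 V1 genes after SCL, and 0 to 54 genes between ECL and SCL (54 without SCL replicate 3, 2 without ECL replicate 4).

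Signs turned as follows. With the length and GC offset Atp6v0d1 had −0.14 after SCL and ECL and Atp6v0e2 −0.0091 after SCL. Atp6v0a1 after ECL had 0.076 with TMM factors over all symbols and without a filter, and −0.27 to 0.0036 with 1 library left out. Between ECL and SCL, Atp6v0e2 had −0.073 with the sex term, and leaving out 1 library gave −0.029 to 0.24 for Atp6v0a1, −0.028 to 0.12 for Atp6v0d1, −0.022 to 0.11 for Atp6v0e and −0.13 to 0.16 for Atp6v0e2. The share of Atp6v0c-ps2 differed between SCL and control by −4.49 to 0.30 percentage points with 1 library left out. Whether the replicate numbers of the titles pair the samples is not known. Deviations of samples with the same number correlated at −0.16 to 0.54. Samples with different numbers were not compared, so these values cannot decide it. With the replicate block 2356 genes were called after SCL, 2678 after ECL and 0 between the lesions, and the log2 fold change of Atp6v0c was 2.50 and 3.61. Depth limits the control level of Atp6v0c, which rests on 26 to 92 counts per library, and the handling of reads shared with its copy is not known.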
